A study of Mus musculus with 5 samples.

Results

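Ebf1, Ebf2 and Ebf3 were followed across the cells of the paraventricular hypothalamus in 5 single-nucleus RNA libraries of the mouse. These are 3 of the 31054 features in every matrix, found by their gene symbols, and they were chosen because Ebf1 stood out between the saline and VPA libraries in earlier results of the same data. In the first experiment male OT-Cre; Ai9 mice (Rosa26tm9(CAG-tdTomato)Hze) had been given valproic acid (VPA) at 500 mg/kg, or saline at 10 mL/kg, on prenatal day 12.5 and were taken at 5 weeks of age, with dissection guided by tdTomato. In the second experiment all male mice had the same prenatal VPA and were OT-Cre; stop-hM3 (Rosa26dreaddm3), in which Cre switches on the designer receptor hM3. On postnatal day 2 they received saline (hM3 control) or clozapine N-oxide (CNO, the ligand of hM3), and their nuclei were taken at an age of 5 to 7 weeks. An AAV had also been injected in these mice in the paraventricular and supraoptic regions, and the labels do not name what it carried. All mice were on a C57BL6 background, each library pooled 2 to 4 mice that were not told apart, and OT-Cre acts in oxytocin neurons, which are a small part of the neurons described here.

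The saline, VPA and hM3 control groups had 1 library each and the CNO group had 2. No test was therefore possible between saline and VPA, and 1 library against 2 cannot give a permutation p below 0.333, so no p-value is reported. Intervals in brackets are exact Poisson (UMIs) or exact binomial (shares) intervals at 95% and cover counting error only. The libraries held 5.25e7 to 7.62e7 UMIs as deposited, 29484 nuclei were kept, and 19852 of them passed the marker gate for neurons. The median neuron held 13269 UMIs in the saline, 6145 in the VPA, 16483 in the hM3 control, 17502 in the CNO replicate 1 and 10374 in the CNO replicate 2 library. Shares of nuclei with a UMI rise with this depth, so they are also given after each nucleus was thinned to 2000 UMIs. Nuclei had been sorted on DAPI with a gate that favoured large ones, and 4 to 23 barcodes were shared by any pair of libraries.

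Ebf proteins (early B-cell factors, also called Olf/Ebf or Collier factors) are DNA-binding proteins with an atypical zinc-coordinating domain that bind a palindromic site as dimers. Ebf1 is known for committing lymphoid precursors to the B-cell lineage, and Ebf1, Ebf2 and Ebf3 act in olfactory neurons, in migrating and differentiating neurons of the embryo, and in adipose and mural cells. Ebf2 is known for its part in Cajal-Retzius cells, cerebellar Purkinje cells and brown fat, and Ebf3 for a human neurodevelopmental syndrome. Ebf4 is the remaining family member.

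In GENCODE vM21 (GRCm38) Ebf1 (ENSMUSG00000057098) spans chr11:44617317-45008091 on the plus strand, Ebf2 (ENSMUSG00000022053) chr14:67233292-67430918 on the plus strand, and Ebf3 (ENSMUSG00000010476) chr7:137193673-137314445 on the minus strand. Their lengths are 390.775, 197.627 and 120.773 kb, and levels were not scaled to length, so levels are compared within a gene and never between genes. The 250 bases before the RefSeq start sites (GRCm38.p6) are shown for Ebf1 and Ebf3, on which the results below mostly turn, and for Avp and Oxt, the hormone genes that separate neurons rich and poor in Ebf3. Ebf2 is named only. Each reads 5′ to 3′ on the gene's strand and ends at the base before the start. Capitals mark matches to the core CCCNNGGG of the Ebf palindrome.
Ebf1, first start, chr11:44617850-44618099: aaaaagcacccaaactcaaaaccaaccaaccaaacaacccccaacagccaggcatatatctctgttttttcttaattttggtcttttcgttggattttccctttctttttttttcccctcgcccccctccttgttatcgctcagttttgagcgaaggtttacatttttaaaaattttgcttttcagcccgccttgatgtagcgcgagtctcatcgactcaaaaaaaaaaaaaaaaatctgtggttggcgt
Ebf1, second start, chr11:44619978-44620227: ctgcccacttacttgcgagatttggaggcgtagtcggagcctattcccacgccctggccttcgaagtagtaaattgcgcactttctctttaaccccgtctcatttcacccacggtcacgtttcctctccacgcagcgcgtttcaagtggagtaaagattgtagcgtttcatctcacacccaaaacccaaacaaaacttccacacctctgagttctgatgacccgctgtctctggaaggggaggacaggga
Ebf3, chr7:137314446-137314695: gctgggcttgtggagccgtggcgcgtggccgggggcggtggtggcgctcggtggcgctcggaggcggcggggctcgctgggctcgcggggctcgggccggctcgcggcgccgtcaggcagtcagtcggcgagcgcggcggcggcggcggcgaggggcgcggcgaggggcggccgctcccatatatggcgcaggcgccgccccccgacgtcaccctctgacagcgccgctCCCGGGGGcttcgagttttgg
Avp, chr2:130582589-130582838: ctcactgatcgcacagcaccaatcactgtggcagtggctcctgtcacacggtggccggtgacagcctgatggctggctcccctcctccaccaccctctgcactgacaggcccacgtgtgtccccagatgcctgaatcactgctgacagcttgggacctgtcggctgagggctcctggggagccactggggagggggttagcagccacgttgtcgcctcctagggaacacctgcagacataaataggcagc
Oxt, chr2:130575919-130576168: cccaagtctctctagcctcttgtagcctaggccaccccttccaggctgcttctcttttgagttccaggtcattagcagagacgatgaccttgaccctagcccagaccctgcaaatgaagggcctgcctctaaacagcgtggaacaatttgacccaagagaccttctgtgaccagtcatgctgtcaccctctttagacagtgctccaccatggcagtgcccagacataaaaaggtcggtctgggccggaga
The GC content of these windows was 40% and 52% for the Ebf1 starts, 80% for Ebf3, 62.4% for Avp and 54% for Oxt. The core CCCNNGGG, which reads the same on both strands, was in 3882 of all 32851 such windows (11.8%). The longer palindrome, the same core with a T before it and an A after it, was in 256 of them (0.779%) and in none of the 5 shown. Among the 5 windows the core was found in Ebf3 alone, at 21 bases before the start. These matches describe letters in a window, not bound sites.

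Outside neurons, Ebf1 was high in the cells of blood vessels. Mural nuclei (pericytes and smooth muscle, 7 to 47 per library) held 5180 CPM (UMIs of the gene per 1000000 summed UMIs) in the saline, 3203 in the VPA, 3311 in the hM3 control, 2753 in the CNO replicate 1 and 2128 in the CNO replicate 2 library. Endothelial nuclei (9 to 88 per library) held 2320, 2894, 1798, 1470 and 1878 CPM in the same order. At least 92.9% of mural and 77.8% of endothelial nuclei had an Ebf1 UMI in every library, with the lowest level in CNO replicate 2 for mural and in CNO replicate 1 for endothelial nuclei. Ebf2 and Ebf3 gave no UMI in any endothelial nucleus, and in the largest set, 0 of 88, a floor of 3 counts allows a share of nuclei with a UMI of up to 3.41% (the exact 95% binomial interval ends at 4.11%), which is no limit on the nuclei that express the gene.

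Ebf1 was also present in oligodendrocyte progenitors, at 102.7, 237.8, 250.6, 181.3 and 123.9 CPM in the order just used, and 35.7% to 57.5% of the 14 to 45 progenitor nuclei had a UMI. Ebf2 was at 0 in them in all 5 libraries. Mature oligodendrocytes served as the background of free RNA. Their share with an Ebf1 UMI was 0.301% to 2.36% (median depths 1794.5 to 3809 UMIs), with at most 1.27% for Ebf2 and 0.906% for Ebf3. Microglia, in contrast to the vessels, held Ebf3, at 58.2, 88.5, 105.9, 52.4 and 70.8 CPM, with a UMI in 10.1% to 25% of nuclei. Ebf1 in microglia ranged from 0 in the hM3 control to 304 CPM in CNO replicate 1, where 29 UMIs came from 3 of 24 nuclei.

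Neurons as a whole held Ebf1 at 72.5 CPM in the saline, 140.7 in the VPA, 90.4 in the hM3 control, 97.7 in the CNO replicate 1 and 76.2 in the CNO replicate 2 library. Ebf2 was at 20.2, 24.7, 18.2, 29.0 and 19.6 CPM, and Ebf3 at 34.2, 21.7, 21.9, 15.1 and 25 CPM. Between 12.3% and 17.4% of neurons had an Ebf1 UMI, 2.85% to 6.74% an Ebf2 UMI and 6.21% to 14.7% an Ebf3 UMI, at a greater depth than that of the oligodendrocytes. After thinning to 2000 UMIs the Ebf1 shares were 5.60%, 8.75%, 6.32%, 7.09% and 7.73%, so the VPA library was the highest at equal depth as well. Oligodendrocytes at that depth had an Ebf1 UMI in 0%, 1.79%, 1.04%, 0.485% and 3.18% of nuclei, an Ebf2 UMI in at most 0.971% and an Ebf3 UMI in at most 1.36%. The shares of all neurons were above those of their own library for each gene, although the intervals overlapped for Ebf2 in VPA and CNO replicate 1 and for Ebf3 in CNO replicate 2. By neuron type, the Ebf2 shares of GABAergic, thalamus-type and oxytocin neurons and the Ebf3 shares of GABAergic and oxytocin neurons overlapped this background in all 5 libraries. So did the Ebf1 share of oxytocin neurons, and no expression is read from these low values.

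Neuron types were set by UMIs of marker genes, none of them an Ebf gene. Ebf1 was highest in non-GABAergic neurons with Sim1 or Otp, the transcription factors of the paraventricular lineage. It stood there at 235.8 CPM in the saline, 444.3 in the VPA, 410.9 in the hM3 control, 655.6 in the CNO replicate 1 and 213.6 in the CNO replicate 2 library (204 to 1030 nuclei). The counting intervals of the VPA (429.7 to 459.3) and hM3 control (395.6 to 426.6) libraries did not overlap, and those of saline (227.0 to 244.9) and CNO replicate 2 (194.7 to 233.7) did. In each library this type lay above the other 6 exclusive types. Neurons that passed no gate (88.0, 153.6, 94.6, 80.0 and 107.3 CPM) ranked just below it or one place lower in all 5 libraries. Other glutamatergic neurons (73.9, 220.5, 34.2, 52.4 and 109.6 CPM) came just below Sim1 or Otp neurons in the VPA and CNO replicate 2 libraries and below thalamus-type, GABAergic and oxytocin neurons in the hM3 control. GABAergic neurons held 21.8, 45.2, 50.1, 63.2 and 66.9 CPM and thalamus-type neurons (Tcf7l2 with other thalamic markers) 19.8, 39.8, 60.0, 30.3 and 41.1 CPM. These types changed places in the order from library to library. Oxytocin neurons, at 8.01, 14.5, 46.8, 1.75 and 53.9 CPM, had a UMI in 3 of 88 saline nuclei (3.41%) and in 20% of CNO replicate 2 nuclei.

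Ebf2 was in Sim1 or Otp neurons at 48.3, 63.2, 73.3, 119.6 and 34.4 CPM and in other glutamatergic neurons at 34.4, 72.0, 16.6, 62.2 and 39.5 CPM. The first was above the second in the saline, hM3 control and CNO replicate 1 libraries and below it in the other two. In the saline library the 55.4 CPM of neurons without a gate was above both, although the counting intervals of that value (48.9 to 62.5) and of Sim1 or Otp neurons (44.3 to 52.5) overlapped. GABAergic neurons were at 8.47, 7.35, 8.29, 15.6 and 16.7 CPM, and thalamus-type neurons at 3.25, 13, 13, 8.77 and 8.45 CPM. A single nucleus can set such low sums: 62 of the 77 Ebf2 UMIs of thalamus-type neurons in the hM3 control library, and 31 of 70 in the VPA library, came from 1 nucleus each.

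**Figure D1:**
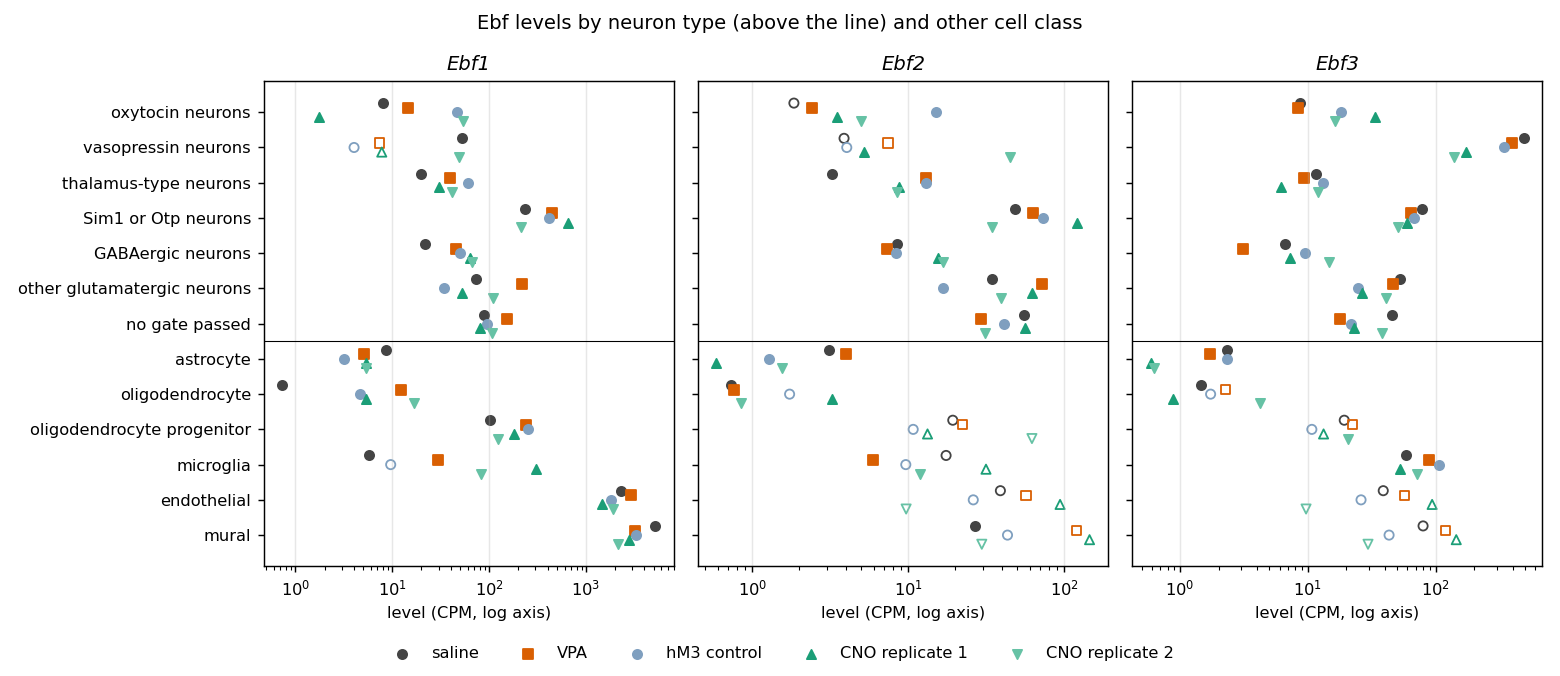
Level of Ebf1, Ebf2 and Ebf3 (CPM of summed UMIs, log axis, a panel for each gene) in cell classes and neuron types, with a point for each of the 5 libraries. Open points mark 0 UMIs and stand at the level of 3 counts. Ebf1 was highest in mural and endothelial nuclei and, among neurons, in Sim1 or Otp neurons, while Ebf3 was highest in vasopressin neurons.

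Ebf3 had a different place from Ebf1 and Ebf2. Vasopressin neurons (at least 5 Avp UMIs and fewer than 5 Oxt UMIs) held it at 489.2 CPM in the saline, 397.8 in the VPA, 339.9 in the hM3 control, 171.3 in the CNO replicate 1 and 139.4 in the CNO replicate 2 library (56, 51, 40, 19 and 57 nuclei). The saline library was the highest and both CNO libraries the lowest. An Ebf3 UMI was seen in 98.2% (90.4 to 100), 94.1%, 90%, 52.6% (28.9 to 75.6) and 91.2% of these nuclei. At 2000 UMIs the shares were 66.1%, 56.9%, 52.5%, 26.3% and 40.4%. In oxytocin neurons (at least 5 Oxt UMIs), the other magnocellular hormone cells, Ebf3 was at 8.62, 8.44, 18.3, 33.3 and 16.2 CPM, with a UMI in 2.47% to 18.8% of nuclei. Both hormone types therefore differed in every library by more than their counting intervals, with vasopressin neurons higher. Sim1 or Otp neurons came second for Ebf3, at 77.9, 63.7, 67.7, 59.8 and 50.7 CPM. GABAergic neurons, at 6.60, 3.08, 9.45, 7.21 and 14.5 CPM, and thalamus-type neurons, at 11.6, 9.29, 13, 6.21 and 12.0 CPM, were among the lowest.

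Ebf3 detection rose with the number of Avp UMIs. In the saline library 11.3% of neurons without Avp had an Ebf3 UMI, then 17.9% with 1 Avp UMI, 25.6% with 2 to 4, 95.5% with 5 to 9 and 100% with 10 or more. The VPA library gave 5.10%, 7.5%, 40.8%, 90.3% and 100%, and the hM3 control 8.53%, 16.4%, 47.6%, 87.0% and 94.4%. The rise was less steep in CNO replicate 1, where nuclei with 5 to 9 Avp UMIs had Ebf3 in 36.4% and those with 10 or more in 77.8%. In CNO replicate 2 these bins gave 91.3% and 88.9%. By contrast, 0% to 19.2% of neurons with 10 or more Oxt UMIs had an Ebf3 UMI.

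The vasopressin gate held a varying number of nuclei that also passed the GABAergic gate: 1 in saline, 3 in VPA, 8 in the hM3 control and 8 and 21 in CNO replicates 1 and 2. Their Ebf3 level was 228.1, 96.2, 188.9, 44.1 and 83.6 CPM. Without them, in an alternative added after the data were seen, vasopressin neurons held Ebf3 at 500.0, 423.0, 404.2, 353.4 and 318.3 CPM. The counting intervals of the hM3 control (351.5 to 462.5), CNO replicate 1 (266.9 to 458.9, 11 nuclei) and CNO replicate 2 (262.5 to 382.4) then overlapped, so no order among these 3 libraries is read. In these neurons Ebf1 gave 41 UMIs from 1 saline nucleus and none in the VPA, hM3 control and CNO replicate 1 libraries, and Ebf2 gave 2 UMIs in CNO replicate 1 and none in the saline, VPA and hM3 control libraries. CNO replicate 2 stood apart, with Ebf1 at 48.5 CPM in 12 of 57 nuclei and Ebf2 at 44.5 CPM in 5 of 57. There, 65 of the 67 Ebf2 UMIs lay in the nuclei that also passed the GABAergic gate (56.6 CPM, against 5.58 CPM without it). For Ebf1 the level was 44.4 CPM with that gate, with a UMI in 9 of 21 nuclei. Without it the level was 61.4 CPM, from 22 UMIs in 3 of 36 nuclei, and 16 of these UMIs lay in 1 nucleus.

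**Figure D2:**
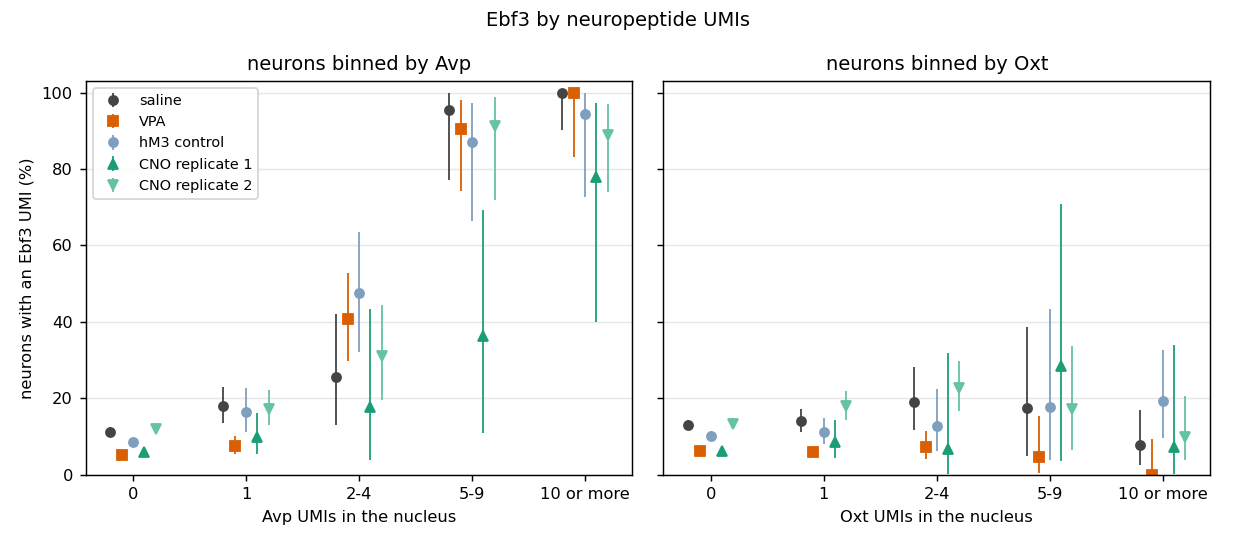
Share of neurons with an Ebf3 UMI (percent, bars for the exact 95% binomial interval) by the number of Avp UMIs and of Oxt UMIs in the same nucleus, with a point for each library in each bin. The share rises to 77.8% or more at 10 or more Avp UMIs in every library, while it does not pass 19.2% at 10 or more Oxt UMIs.

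Within Sim1 or Otp neurons, Ebf1 was lower in nuclei with the reelin gene Reln, which encodes a secreted guidance protein. Of the nuclei with at least 2 Reln UMIs, 12.7% to 22% still had an Ebf1 UMI. Sim1 or Otp neurons without a Reln UMI held Ebf1 at 310.0, 585.5, 589.1, 888 and 275.3 CPM. Those with at least 2 Reln UMIs held 52.0, 77.5, 91.6, 164.7 and 117.0 CPM, lower in all 5 libraries. Ebf3 went the other way, with 69.1, 55.3, 64.9, 56.3 and 32.7 CPM without Reln and 91.6, 88.8, 71.6, 75.8 and 76.9 CPM with it. The counting intervals of Ebf3 overlapped in the hM3 control (57.4 to 73.1 against 60.5 to 84.2) and CNO replicate 1 (47.5 to 66.4 against 59.1 to 95.8) libraries, and they did not in the other 3. Neurons with Sim2, a close relative of Sim1, were rich in Ebf1 alone: 456.2, 628.2, 648.3, 466.0 and 598.8 CPM (57, 46, 57, 24 and 15 nuclei). Between 47.4% and 86.7% of them had an Ebf1 UMI, while Ebf3 did not pass 17.6 CPM there. Neurons with Trh, the thyrotropin-releasing hormone gene (17 to 44 nuclei), likewise held Ebf1 (201.2, 291.3, 119.8, 143.9 and 65.5 CPM) with at most 4.87 CPM of Ebf2.

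A further 16 neuron sets were each defined by 2 UMIs of 1 gene and held at least 20 nuclei in every library. Among them the tachykinin gene Tac1 had the highest median over libraries for both Ebf1 and Ebf2. Neurons with Tac1 (24 to 62 nuclei) held Ebf1 at 272.5, 925.2, 258.4, 340.7 and 213.5 CPM and Ebf2 at 119.1, 411.8, 154.8, 118.4 and 92.4 CPM, with the VPA library highest for both. Next by their median over libraries came Calb2, Cartpt and Penk for Ebf1 (131.5, 115.7 and 108.3 CPM), and Penk, Calb2 and Drd2 for Ebf2 (54.4, 42.4 and 28.3 CPM). Their ranges over libraries overlapped, so no order among them holds. The range of Tac1 overlapped that of Calb2 too, whose highest levels were 279.5 CPM for Ebf1 and 109.4 CPM for Ebf2. For Ebf3 the medians of Penk, Foxp2 and Reln neurons were 37.4, 33.2 and 27.1 CPM, with overlapping ranges too. These sets overlap one another and cross the exclusive types above.

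Each gene was concentrated in few nuclei. Neurons with at least 5 Ebf1 UMIs made up 5.23%, 6.26%, 7.42%, 7.67% and 6.85% of neurons, in the same library order, and carried 88.6%, 88.5%, 93.9%, 94.8% and 83.6% of the Ebf1 UMIs. The richest nuclei that together held 50% of the Ebf1 UMIs numbered 59, 165, 61, 45 and 62. For Ebf2 they numbered 25, 43, 18, 22 and 29, and for Ebf3 111, 110, 70, 38 and 87. Poisson intervals on a level therefore understate the error that comes from which nuclei were drawn.

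Ebf1 and Ebf2 were found in the same neurons more often than their shares alone would give. The number of neurons with both was 4.12 (3.33 to 5.05), 4.71, 4.06, 3.88 and 3.05 times the number expected from independent shares, and 50.8% to 58.3% of neurons with Ebf2 also had Ebf1. Ebf2 and Ebf3 met at 2.56, 3.88, 3.26, 6.57 and 3.05 times the expected number. For Ebf1 and Ebf3 the ratio was 1.86, 1.20 (0.937 to 1.52), 1.69, 2.56 and 1.82. Inside Sim1 or Otp neurons the ratio of Ebf1 and Ebf2 was 2.56, 2.43, 1.91, 1.53 and 1.96, with an interval that held 1 in CNO replicate 1 (0.972 to 2.30), while that of Ebf1 and Ebf3 was below 1 in every library, at 0.762, 0.348, 0.530, 0.629 and 0.670. The counting interval of this last ratio stayed below 1 in the VPA (0.218 to 0.527) and hM3 control (0.328 to 0.810) libraries, and it held 1 in the saline and both CNO libraries. For Ebf2 and Ebf3 it was 0.768, 0.973, 0.977, 1.36 and 1.45, and all 5 intervals held 1. With Sim1 or Otp neurons called at 2000 UMIs few nuclei held a pair: the intervals of Ebf1 with Ebf3 held 1 in all 5 libraries, those of Ebf1 with Ebf2 in the hM3 control and CNO replicate 2. All types and depths are mixed in the ratios over all neurons. At 2000 UMIs the medians over libraries in all neurons were 6.33 for Ebf1 with Ebf2 and 4.86 for Ebf2 with Ebf3. Ebf1 with Ebf3 was then at 1.36, 0.812, 1.99, 4.02 and 1.26, and the intervals of the saline, VPA (0.464 to 1.32) and CNO replicate 2 libraries held 1, so no excess of this pair is read in those libraries.

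**Figure D3:**
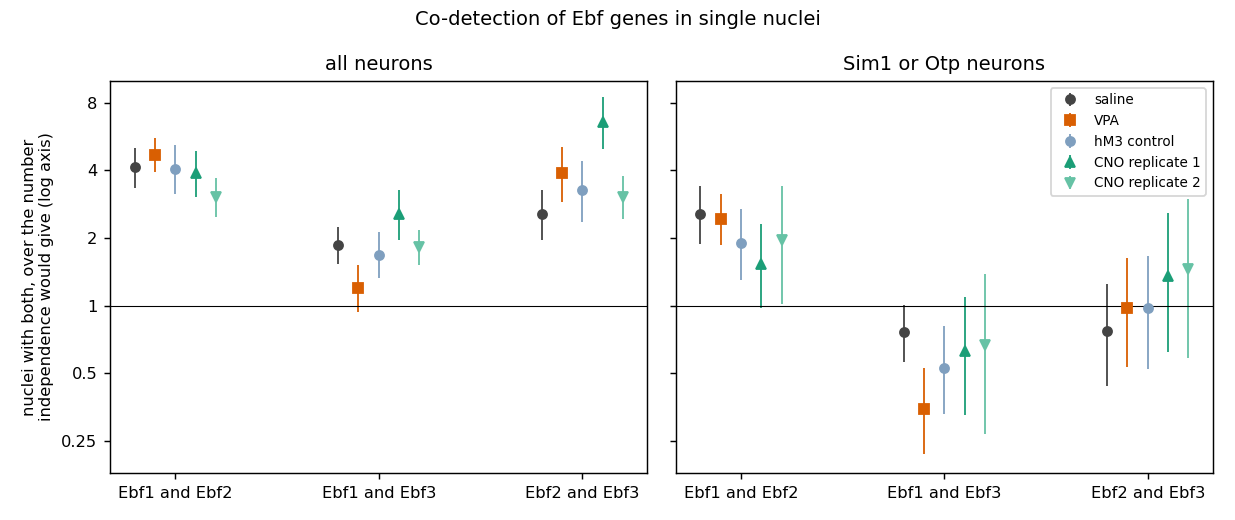
Observed over expected number of neurons with UMIs of both genes (log axis, line at 1, bars for the 95% counting interval) for the 3 pairs of Ebf genes, in all neurons and in Sim1 or Otp neurons, with a point for each library, at the deposited depth. The points of Ebf1 and Ebf2 lie above 1 in both panels, with an interval that holds 1 for CNO replicate 1 in Sim1 or Otp neurons, while the points of Ebf1 and Ebf3 lie above 1 in all neurons, with a VPA interval that holds 1, and below 1 in Sim1 or Otp neurons.

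Genes with a like pattern were ranked by the median over libraries of Pearson's r across 23 overlapping neuron sets, as a description. Points share a library and nuclei, and 7298 genes were compared. For Ebf1 the highest were Unc13c (a synaptic vesicle priming factor, 0.76), Ebf2 (0.73), Col18a1 (0.69), Bdnf (0.69) and Alg13 (0.69). For Ebf2 they were Ebf1 (0.73), Col18a1 (0.70), Magi1 (0.67), Mdga1 (0.64) and Tac1 (0.64). Ebf3 had other neighbours: Tmem219 (0.79), Mcc (0.79), Cdh9 (0.78), Cep83 (0.78) and Magi3 (0.78). The median r of Ebf1 with Ebf3 was 0.03 and that of Ebf2 with Ebf3 was 0.22.

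Neurons with at least 2 UMIs of a member were also set against neurons with none. Neurons with Ebf1 were richer in Ebf2 by 1.80 to 3.49 over the 5 libraries on the log2(CPM + 10) scale, in the axon guidance gene Sema3a by 0.79 to 2.12, in Unc13c by 0.65 to 2.00 and in Col18a1, a basement membrane collagen, by 0.61 to 1.93. Bnc2, Pcsk5, Col6a5 and Pdzrn4 were also among the first 10 for Ebf1. Neurons with Ebf2 were richer in Ebf1 by 2.16 to 3.25, in the zinc-finger gene Bnc2 by 1.27 to 2.40, in Col18a1 by 1.14 to 2.64 and in Ebf3 by 1.02 to 2.74, and Hmcn2, Unc13c, Gm28928 and Mdga1 were also among the first 10. Neurons with Ebf3 were richer in Avp by 2.27 to 3.66, in Ebf2 by 1.48 to 3.40 and in Sim1 by 1.00 to 2.10, and in Gm44593, Tns1, Cdh9, Kcnh1, Pou3f2, Cpa6 and Caprin2. Pou3f2 is a transcription factor needed for the hormone neurons of this nucleus. The lists also held Gm12158, which lies antisense within Ebf1, and 4930438E09Rik and Gm6878, which lie antisense within Ebf2. Whether counting used the strand is not stated, so reads of these and of the Ebf gene cannot be told apart.

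In the VPA library, Ebf1 in neurons was 140.7 CPM against 72.5 in saline, and Ebf3 was 21.7 against 34.2. The log2 ratio of VPA to saline was 0.96 (0.90 to 1.01) for Ebf1, 0.29 (0.18 to 0.41) for Ebf2 and -0.66 (-0.77 to -0.55) for Ebf3. With nuclei thinned to 2000 UMIs the Ebf2 ratio was 0.00457, so no direction is read for it. On the log2(CPM + 10) scale used for all genes, where 8884 genes had at least 10 CPM and their median was 0.05, Ebf1 stood at 0.87, Ebf2 at 0.20 and Ebf3 at -0.48. Past 0.5 lay 57 genes that were higher (0.642%) and 55 that were lower (0.619%). Ebf1 was 1 of these 57, with 4 genes above it, and Ebf3 lay just inside the limit, with 62 genes below it. Since Ebf1 was chosen by this contrast, these values describe it and support nothing. Ebf4, at 0.05, lay at the median of all genes.

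By neuron type, the ratio for Ebf1 was 0.91 in Sim1 or Otp, 1.05 in GABAergic, 1.58 in other glutamatergic and 1.01 in thalamus-type neurons, and 0.80 in neurons without a gate. The VPA library was thus higher in each of these 5 sets, and at 2000 UMIs 25.5% (22.9 to 28.3) of its Sim1 or Otp neurons had Ebf1 against 15.2% (12.7 to 17.9) in saline. The share with 3 or more UMIs at that depth was 13.7% against 5.99%. With types also called at 2000 UMIs the GABAergic ratio was 1.83. Oxytocin neurons gave 12 UMIs against 13, too few to show a direction (0.85, -0.41 to 2.10). Vasopressin neurons gave none in VPA against 41 in saline, all from 1 nucleus, so no direction is read there either.

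For Ebf3 the ratio was -0.29 (-0.45 to -0.13) in Sim1 or Otp and -0.30 (-0.57 to -0.03) in vasopressin neurons, and -1.35 in neurons without a gate. The -1.10 of GABAergic neurons came from shares that overlapped the oligodendrocyte background, and no direction is read from it. Without nuclei of the GABAergic gate the counting intervals of vasopressin neurons overlapped (450.5 to 553.5 CPM in saline and 359.6 to 494.4 CPM in VPA). The ratio was -0.32 (-0.82 to 0.15) in thalamus-type and -0.19 in other glutamatergic neurons, intervals that held 0. The Sim1 or Otp ratio of Ebf3 was -0.08 with a gate of 3 UMIs, -0.49 with a gate of 1 UMI and -0.79 with types called at 2000 UMIs, so its size is not fixed by these data. For Ebf2 the types went different ways: 0.39 in Sim1 or Otp and 1.07 in other glutamatergic neurons, against -0.92 in neurons without a gate. The Ebf2 ratio was -0.20 (-0.52 to 0.11) in GABAergic and 2.00 in thalamus-type neurons. The latter dropped to 1.53 without the richest nucleus of each library. Ebf2 shares in both types overlapped the oligodendrocyte background, so no direction is read from them. Neurons without a gate were 36.5% of VPA neurons and 11.5% of saline neurons, and the VPA library was the shallower one, so the types of both libraries were not caught at the same depth. The summed level of 8 oligodendrocyte markers in neurons was 74.4 CPM in VPA and 57.2 CPM in saline. For the classes with Ebf1 or Ebf3 of their own the marker sums were 24.7 and 20.5 CPM (mural), 15.1 and 18.3 CPM (endothelial), 3.18 and 1.15 CPM (oligodendrocyte progenitors) and 89.9 and 83.2 CPM (microglia), and the part of all these cells' RNA in the results was not tested.

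**Figure D4:**
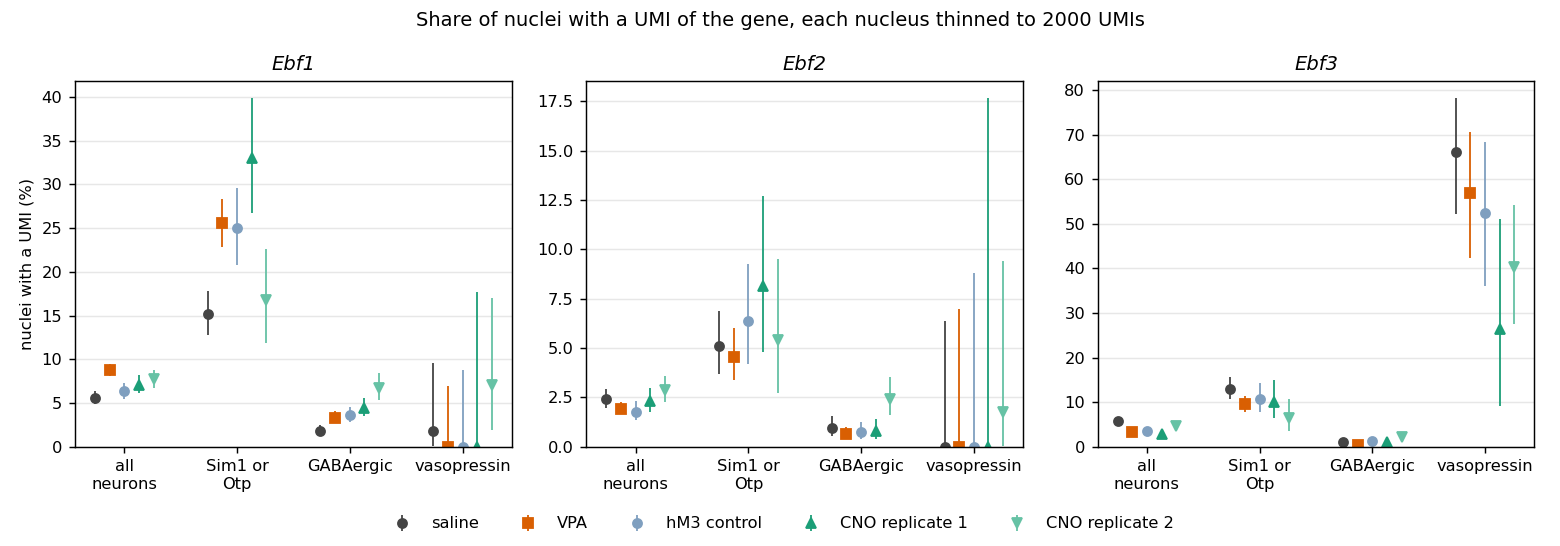
Share of nuclei with an Ebf1, Ebf2 or Ebf3 UMI (percent, bars for the exact 95% binomial interval) after each nucleus was thinned to 2000 UMIs, by neuron type and library. For Ebf1 in Sim1 or Otp neurons the VPA, hM3 control and CNO replicate 1 libraries stand at 25.5%, 25% and 33.0%, above saline (15.2%) and CNO replicate 2 (16.7%).

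In neurons as a whole, no Ebf gene differed from the hM3 control by 0.5 (log2) in the same direction in both CNO libraries. Ebf1 stood at 90.4 CPM in the control and at 97.7 and 76.2 CPM in CNO replicates 1 and 2, so the replicates lay on either side of it, with log2 ratios of 0.11 and -0.25. For Ebf2 the ratios were 0.67 and 0.11, the second with a counting interval that held 0 (-0.02 to 0.24). For Ebf3 they were -0.53 and 0.19. Of 9149 genes, 55 were higher by 0.5 or more on the log2(CPM + 10) scale in both replicates (0.601%) and 3 were lower (0.0328%), and none of the Ebf genes was among them. These 58 genes became 739 with replicate 2 alone and 161 with replicate 1 alone.

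Inside Sim1 or Otp neurons the CNO replicates lay on either side of the control for Ebf1 and Ebf2. Ebf1 was at 410.9 CPM in the control, 655.6 in replicate 1 and 213.6 in replicate 2 (ratios 0.67 and -0.94), and Ebf2 at 73.3, 119.6 and 34.4 CPM (0.71 and -1.09). Ebf3 was at 67.7, 59.8 and 50.7 CPM there (-0.18 and -0.42), below the control in both, though the counting interval of replicate 1 included no difference. CNO replicate 2 was the shallowest of the 3, with a median of 8796.5 UMIs in these nuclei against 15237.5 in the control and 16388 in replicate 1, and 24.3% of its neurons passed no gate, against 10.1% and 11.7%. The types were therefore not caught at the same depth here either. At 2000 UMIs, with types from all UMIs, the shares with Ebf1 kept the order, at 25%, 33.0% and 16.7%. In GABAergic neurons both replicates were above the control for Ebf1 (63.2 and 66.9 against 50.1 CPM, ratios 0.34 and 0.42). The same held for Ebf2 (15.6 and 16.7 against 8.29 CPM, 0.91 and 1.01), but for Ebf3 the replicates went opposite ways (-0.39 and 0.62). At 2000 UMIs the GABAergic share with Ebf1 was 3.59% in the control, 4.44% and 6.75%. The share with Ebf2 was 0.738% (0.404 to 1.24), 0.796% and 2.44%. For both genes the counting interval of the control held the value of replicate 1 and not that of replicate 2. With types also called at 2000 UMIs the ratio of the mean for Ebf2 was 2.53. It rested on 2 of 412 nuclei in the control (2.43 CPM), 1 of 360 in replicate 1 (1.39 CPM) and 6 of 207 in replicate 2 (26.6 CPM). The control and replicate 1 cannot be put in order on so few. A direction shared by both replicates is thus not shown for Ebf1 or Ebf2 at equal depth, where the Ebf2 share also overlapped the oligodendrocyte background. In CNO replicate 1 a single GABAergic nucleus held 218 of the Ebf1 UMIs (10.5%).

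Other glutamatergic neurons were also higher in both replicates, with ratios of 0.61 and 1.68 for Ebf1 and 1.91 and 1.25 for Ebf2. Both varied with the gate. A gate of 1 UMI in place of 2 took the ratio of the mean to -0.02 for Ebf1 and to 0.20 for Ebf2, from 1.24 and 1.62. A gate of 3 UMIs gave 1.35 and 1.19. Thalamus-type neurons were lower, at -0.98 and -0.55 for Ebf1 and -0.57 and -0.63 for Ebf2. Without the richest nucleus of each library, however, the Ebf2 ratios turned to 1.04 and 1.02, and the shares with Ebf1 at 2000 UMIs (3.13%, 3.99% and 5.31%) went against the CPM, so no direction is read there. In vasopressin neurons Ebf3 was lower in both replicates (-0.99 and -1.29). Without nuclei of the GABAergic gate the levels were 404.2 CPM in the control and 353.4 and 318.3 CPM in the replicates, with counting intervals that overlapped. The neurons of the control and of replicates 1 and 2 also differed in summed oligodendrocyte markers (101.4, 129.2 and 249.2 CPM). Replicate 2 was also the highest of the 3 for markers of microglia (67.1, 75.7 and 136.6 CPM), endothelial (5.54, 5.52 and 11.2 CPM) and mural cells (17.2, 18.2 and 29.5 CPM) and of oligodendrocyte progenitors (4.75, 5.34 and 10.2 CPM), and their part in these values was not tested.

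**Figure D5:**
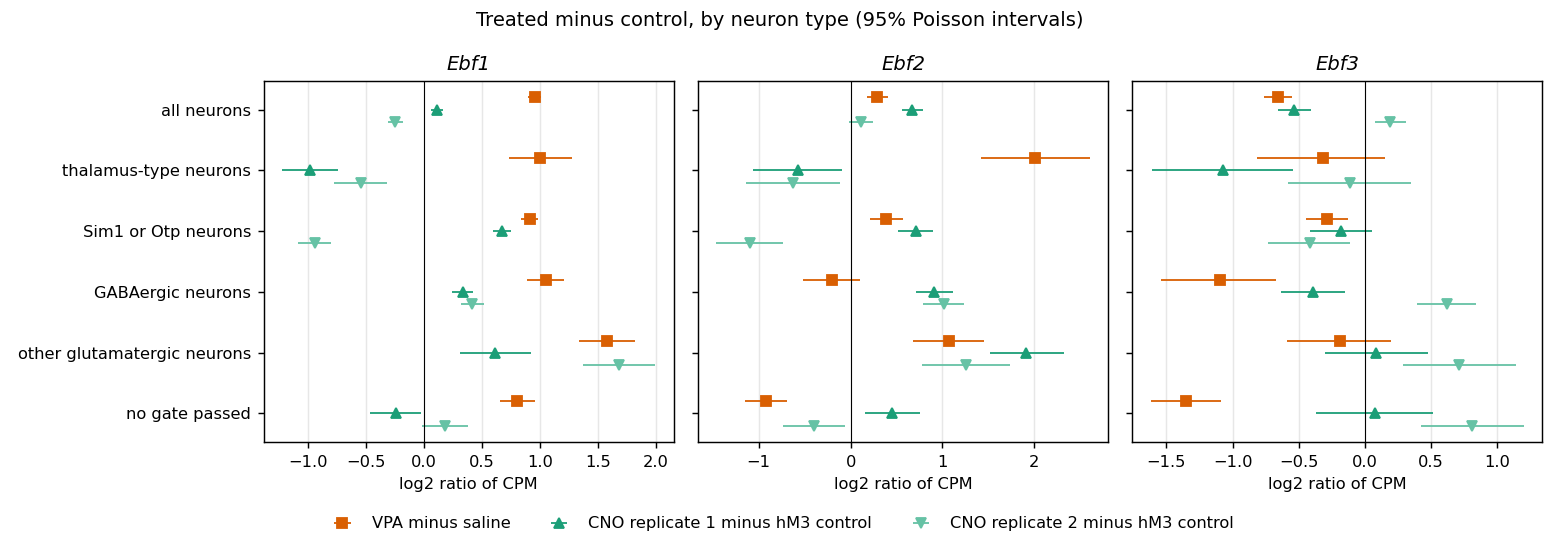
Log2 ratio of CPM for Ebf1, Ebf2 and Ebf3 in all neurons and by neuron type, as VPA minus saline and as each CNO replicate minus the hM3 control, with bars for the 95% counting interval and a line at 0. Oxytocin and vasopressin neurons are not drawn. Ebf1 lies above 0 in the VPA contrast in each neuron set shown, while for Ebf1 and Ebf2 the CNO replicates lie on opposite sides of 0 in Sim1 or Otp neurons.

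Other genes tied to Ebf factors were read from lists. Of 9 co-factors and antagonists, 8 had at least 10 CPM in the mean of the arms compared, and Tle3 (7.18 to 10.9 CPM) did not. The 8 were Ebf4, the Ebf-binding zinc-finger genes Zfp423 and Zfp521, the co-repressors Tle1 and Tle4, the chromatin remodelling genes Arid1a and Smarca4, and Cnot3 of the CCR4-NOT complex. None passed 0.5 in the VPA contrast, or in both replicates of the CNO contrast. Over all genes 0.642% were higher and 0.619% lower in the VPA contrast, and 0.601% and 0.0328% in the CNO contrast, so that a count of 0 in lists this short, here and in the next paragraph, says nothing particular about them. Their median was 0.04 in the VPA contrast, against 0.05 over all genes, and -0.17 in the CNO contrast, against 0.02. In the VPA contrast Tle4 came nearest to the fold, at 0.41. In the CNO contrast Cnot3, at 0.57 and 0.19, passed it in replicate 1 alone.

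Of 15 genes that act above Ebf genes in other tissues, 5 reached 10 CPM (Tcf3, Tcf4, Tcf12, Foxo1 and Isl1) and none passed the fold in either contrast. The 5 adipocyte genes, such as Pparg, were all under 10 CPM. Of 6 olfactory targets, Gnal and Adcy3 were above it, and neither passed the fold. Of the 8 transcription factors of the paraventricular lineage, 3 were tested (Sim1, Pou3f2 and Arnt2) and none passed, although Sim1 was at -0.30 in VPA and -0.81 and -0.24 in the CNO replicates. Of the 6 thalamic factors, 4 were tested, and 2 of them passed the fold, lower in VPA and higher in CNO. Tcf7l2 was at -1.03 in VPA and 0.87 and 0.90 in the CNO replicates, and Lef1 at -1.30, 1.60 and 1.82. Rora was at -0.20, 0.27 and 0.23, and Foxp2 at -0.48, -0.47 and 0.30, so Foxp2 was on either side of the control in the CNO replicates. Tcf7l2 and Lef1 mark thalamus-type neurons, whose share of neurons was 16.2% in saline, 7.25% in VPA, 8.19% in the hM3 control and 12.4% and 18.7% in CNO replicates 1 and 2. Of the 11 LIM-domain genes listed, 3 were tested (Isl1, Lmo3 and Lmo4) and none passed the fold.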

How the data were processed

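Single nuclei of 5 libraries were measured with 10x Genomics chemistry, and the values are raw UMI counts per gene and nucleus, deposited by the authors as filtered matrices. Per the submitters' processing notes they were made with Cell Ranger 7.0.1 on mm10. Whether intronic reads and strand were counted is not given in the sources used here, and pre-mRNA in nuclei makes intron counting matter most for long genes. Groups came from the labels, and the 2 experiments were never pooled in a contrast. That the pooled mice of a library share a preparation cannot be told apart from the group.

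Nuclei under 1000 UMIs, or with more than 5% of their UMIs from mitochondrial genes, were left out. In each library the highest Scrublet scores (scanpy 1.11.5) were removed up to 0.8% per 1000 nuclei, which took 169 to 950 nuclei. A class needed at least 3 of its markers. Neurons needed at least 30 marker UMIs per 10000 UMIs, and other classes at least 10. Neurons with 20 or more per 10000 of another class were set aside as mixed. Types needed at least 2 UMIs of their gate genes and were assigned in the order oxytocin (5 Oxt UMIs), vasopressin (5 Avp UMIs), thalamus-type, Sim1 or Otp, GABAergic, other glutamatergic. These limits were set after marker distributions, though not Ebf values, had been seen. UMIs were summed per library and type as CPM. Log2 ratios carry no pseudocount, except in the comparison over all genes (10 CPM added, genes of at least 10 CPM in the mean of the arms). A type entered a contrast with at least 50 nuclei, unless its smaller number is given. Shares were also taken after thinning nuclei to 2000 UMIs without replacement, with types from all UMIs.

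The members and lists were chosen with earlier results of these data known. Named genes were the 5 highest by likeness (at least 20 CPM in 1 type of every library), the 10 highest by their lowest difference in company with a member, and the pathway lists, 1 of which is not reported here. Software was Python 3.11.15, numpy 2.4.6, scipy 1.17.1, pandas 2.3.3 and matplotlib 3.10.9. The summing and the intervals were tested on simulated data. Alternatives covered gates, thinning, weighting, scaling, doublets, pseudocount and leaving out each CNO library.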

Additional observations from a re-analysis of the deposited data

Results flagged for a closer look

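In 3 neuron types both CNO libraries lay on the same side of the hM3 control for Ebf1 and for Ebf2, upwards in 2 types and downwards in the third, so that every library of one type moved against every library of another. In GABAergic neurons the log2 ratios were 0.34 and 0.42 for Ebf1 and 0.91 and 1.01 for Ebf2. With types called at 2000 UMIs, Ebf2 in replicate 1 (1.39 CPM) and in the control (2.43 CPM) rested on 1 and on 2 nuclei with a UMI. These are too few to put the 2 libraries in order. In other glutamatergic neurons the log2 ratios were 0.61 and 1.68 for Ebf1 and 1.91 and 1.25 for Ebf2. The ratio of the mean was -0.02 for Ebf1 and 0.20 for Ebf2 with a gate of 1 UMI, and 1.35 and 1.19 with a gate of 3 UMIs. With doublets kept it was 0.67 and 1.16, and with types called at 2000 UMIs it was -0.86 for Ebf1. In thalamus-type neurons the log2 ratios were -0.98 and -0.55 for Ebf1 and -0.57 and -0.63 for Ebf2. The difference between the types was not tested, because the control is 1 library that all of these ratios share.

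In the thalamus-type neurons of the control, 62 of 77 Ebf2 UMIs (80.5%) lay in 1 nucleus, and without the richest nucleus of each library the Ebf2 ratios were 1.04 and 1.02 and those of Ebf1 -1.13 and -0.46. Without these nuclei the GABAergic ratios were 0.23 and 0.41 for Ebf1 and 0.84 and 1.09 for Ebf2, and those of other glutamatergic neurons 0.43 and 1.85 for Ebf1 and 2.54 and 1.85 for Ebf2.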

How the results depend on the processing

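No paired analysis was possible because the groups compared share fewer than 2 replicate numbers. Of the alternatives to the main results, 74 stayed within the limits set and 22 moved. Of those to single types, 36 stayed, 11 moved and 2 reversed. Why values moved was not tested. Some could not move, since a gate of 1 or 3 UMIs changes neither the set of all neurons nor the vasopressin gate. For CNO the limit was the spread of the 2 replicates, within which leaving out 1 replicate nearly always falls. The number that stayed is therefore no measure of stability. Ebf1 in neurons stayed higher in VPA, at 0.815 with equal weight per nucleus and 0.900 with median-ratio scaling, against 0.956 as reported. Ebf2 in VPA was at 0.00457 after thinning to 2000 UMIs, 0.0680 with equal weight and -0.0141 after thinning and reweighting to the control's types (the last chosen after seeing the data), so its direction does not hold. Ebf3 in VPA stayed lower, at -0.874 after thinning and -0.420 after reweighting. Ebf1 in CNO was 0.198 after thinning and reweighting, against -0.06. Leaving out 1 CNO library in turn gave -0.247 and 0.111 for Ebf1, 0.109 and 0.673 for Ebf2, and -0.534 and 0.192 for Ebf3. The Ebf1 ratio of other glutamatergic neurons in CNO reversed to -0.0158 with a gate of 1 UMI and to -0.858 after thinning, where Ebf2 gave no value. That of Ebf2 was 0.197 with a gate of 1 UMI, against 1.62. With a gate of 3 UMIs they stayed at 1.35 for Ebf1 and 1.19 for Ebf2. The GABAergic ratio of Ebf2 in CNO was 2.53 after thinning, where only 2 control nuclei had a UMI, against 0.964. That of Ebf1 in VPA was 1.83, against 1.05. The Ebf3 ratio of Sim1 or Otp neurons in VPA ran from -0.785 after thinning to -0.0811 with a gate of 3 UMIs, against -0.288. Ebf3 in vasopressin neurons had a median of 500.0 CPM after thinning, against 339.9.

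Genes past the fold numbered 309 in VPA with a pseudocount of 1 CPM, against 112, and 175 in CNO, against 58. Without CNO replicate 1 they numbered 739 and without replicate 2 161. At 2000 UMIs co-detection moved to 6.33 for Ebf1 with Ebf2 and 4.86 for Ebf2 with Ebf3. Changes in share without thinning were 0.0677 points for Ebf1 in VPA (3.12 at 2000 UMIs), -1.94 for Ebf2 (-0.493) and -7.01 for Ebf3 (-2.56, and -3.58 at 4000 UMIs). In CNO they were 2.56 for Ebf1 (1.06 at 2000 UMIs) and 2.00 for Ebf2 (0.821, and 1.49 at 4000 UMIs). Median-ratio scaling shifted all genes by 0.0559 in VPA and by 0.0645 and -0.0287 in the CNO libraries.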

Other observations

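Neurons with Lmx1a or Lmx1b, LIM-homeodomain genes known from the posterior hypothalamus and midbrain, held UMIs of all of Ebf1, Ebf2 and Ebf3 in the saline and CNO replicate 2 libraries, the 2 with at least 20 such nuclei. In the saline library 39 neurons with at least 2 Lmx1a UMIs held 154.5 CPM of Ebf1, 151.7 of Ebf2 and 86.5 of Ebf3, and 20 neurons with Lmx1b held 177.4, 212.3 and 151.3 CPM. In CNO replicate 2, 25 neurons with Lmx1a held 142.1, 72.3 and 77.1 CPM and 43 with Lmx1b held 161.6, 36.9 and 101.6 CPM. The VPA, hM3 control and CNO replicate 1 libraries had 4, 1 and 3 nuclei with Lmx1a and 0, 3 and 3 with Lmx1b. A gate of 2 UMIs catches fewer nuclei in a shallow library, and the VPA neurons had a median of 6145 UMIs. Levels over all neurons need no such gate. Lmx1a was at 5.66 CPM in saline, 2.57 in VPA, 0.22 in the hM3 control and 0.58 and 3.64 in CNO replicates 1 and 2. Lmx1b was at 1.69, 0.48, 0.47, 0.47 and 5.19 CPM in the same order. Whether such neurons were fewer in some libraries was not tested.

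Neurons with Crh, the corticotropin-releasing hormone gene, were rare (12 nuclei in saline, 8 in VPA, 16 in the hM3 control and 7 and 9 in CNO replicates 1 and 2). In that order they held Ebf3 at 100.8, 32.6, 38.8, 0 and 13.8 CPM, values that rest on at most 24 UMIs per library. Meningeal fibroblasts, with 0 to 18 nuclei per library, had Ebf2 UMIs in all 4 libraries in which they were found, with 8 UMIs in 5 nuclei of the hM3 control and 8 UMIs in 18 nuclei of CNO replicate 2.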
